A study of Mus musculus with 20 samples.

Results

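The fatty acid and retinoid receptor genes Ppara, Ppard, Pparg, Rxra, Rxrb and Rxrg and the coactivator genes Ppargc1a and Ppargc1b were examined for DNA methylation in the liver of newborn and weanling mice. These 8 genes, of the 55413 genes of the GENCODE M21 annotation of mm10, were chosen by name, with earlier results of these data known. Their CpGs were those from 5 kb upstream of the gene start to the gene end with at least 10 reads in at least 3 libraries of each of the 4 groups. This left 647 CpGs of the 922846 CpGs that passed the same minimum across the genome.

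The peroxisome proliferator-activated receptors (PPARs) are nuclear receptors that bind fatty acids and their derivatives and bind DNA as a pair with a retinoid X receptor (RXR). In the liver PPARα turns on fatty acid oxidation and ketogenesis, a program that the suckling pup relies on when milk fat becomes its main fuel. PGC1α and PGC1β, the products of Ppargc1a and Ppargc1b, are coactivators that dock on these receptors and on others and raise the transcription of mitochondrial and oxidative genes.

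Reduced representation bisulfite sequencing (RRBS), which reads the methylation of CpGs near CCGG sites cut by the enzyme MspI, was performed on 20 livers labelled male from C57BL/6J offspring, 5 in each of the groups Con-d0, Con-d21, AME-d0 and AME-d21. Con offspring were born to dams on a control diet without stress. AME (adverse maternal environment) offspring were born to dams on a Western diet from before mating through lactation that were also stressed late in gestation by scant bedding, altered light cycles, repeated cage changes and a new object in the cage. The d0 livers were collected at Caesarean section at term, and the d21 livers came from naturally delivered pups of culled litters killed at weaning after a fast, so that delivery, feeding and age cannot be told apart. The AME dams received diet and stress together, so these cannot be told apart either.

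The libraries held 23248139 to 45769589 CpG read counts each, with a median of 7 to 13 reads per CpG. Mean methylation over CpGs with at least 10 reads ran from 33.4 to 40.3% among the d0 libraries and from 40.2 to 43.7% among the d21 libraries. AME-d0 replicates 1 and 3 stood apart with 33.9 and 33.4%, against 36.5% or more in every other d0 library. AME-d21 replicate 4 went against its label male, with 2.88 reads on the X chromosome for every 100 on the autosomes, where the others had 1.4 to 1.55, and with the fewest Y-linked reads of the 20 libraries. Counts of bins are given with and without these libraries. Levels and tests of single bins include them unless stated otherwise.

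The CpGs covered the genes unevenly. Ppara (ENSMUSG00000022383, chromosome 15, 85734983 to 85802819, plus strand) had 103 CpGs, Ppard (chromosome 17, 28232700 to 28301474, plus strand) had 111 and Rxra (chromosome 2, 27676440 to 27762957, plus strand) had 113. Ppargc1b (chromosome 18, 61298136 to 61400431, minus strand) had 138 CpGs, 86 of them in CpG islands, and Rxrb (chromosome 17, 34031812 to 34038399, plus strand) had 104, 94 of them in islands. The upstream window of Rxrb also overlaps Slc39a7, H2-Ke6 and the read-through gene Gm20427. Pparg (chromosome 6, 115360951 to 115490399, plus strand) had 56 CpGs, 54 of them in the island at its first start and none near its starts 22748 bp and more downstream, so its adipocyte-type promoter was not measured. Ppargc1a (chromosome 5, 51454250 to 51567726, minus strand) had 10 CpGs, none near its start, and Rxrg (chromosome 1, 167598384 to 167639623, plus strand) had 12, of which 1 was in an island. These counts are 1.13% of the reference CpGs in the Ppargc1a window, 1.83% in that of Rxrg and 7.10 to 24.8% in the others, so most CpGs of these genes were not seen.

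CpGs were pooled in fixed bins of 200 bp, and the methylation level of a bin in a library is the percent of its reads that were methylated. The genes held 135 bins, of which 41 lay in CpG islands, 5 in shores within 2 kb of an island and 89 outside both. Bins are named by their distance from the gene start, measured along the direction of transcription. A bin is said to have risen or fallen where the limma test adjusted over all 234985 bins of the genome gave an adjusted p under 0.05 and the group means differed by at least 10 percentage points. Group levels are means ± SD over 5 libraries unless another n is given.

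The sequences of the bins on which the results turn are shown from the mm10 reference, plus strand, 5′ to 3′, with the CpGs that were measured in capitals. They are the called bin just upstream of Rxra (chr2:27676201-27676400), the bins of Rxra with the largest changes in Con (chr2:27682001-27682200 and chr2:27758201-27758400), the 3 such bins of Ppara (chr15:85746601-85746800, chr15:85746801-85747000 and chr15:85749001-85749200) and the leading bins of Ppard (chr17:28298201-28298400) and Rxrg (chr1:167607201-167607400). The final capital of Rxra +5.7 kb is the C of a CpG whose G lies just past the bin.
Rxra -0.1 kb: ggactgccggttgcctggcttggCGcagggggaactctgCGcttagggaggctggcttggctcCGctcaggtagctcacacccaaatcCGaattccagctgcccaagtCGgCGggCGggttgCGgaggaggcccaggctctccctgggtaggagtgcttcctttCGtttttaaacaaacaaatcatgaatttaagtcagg
Rxra +5.7 kb: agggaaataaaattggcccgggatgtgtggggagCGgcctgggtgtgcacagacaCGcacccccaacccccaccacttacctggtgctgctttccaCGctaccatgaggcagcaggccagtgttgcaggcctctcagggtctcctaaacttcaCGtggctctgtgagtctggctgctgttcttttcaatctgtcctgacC
Rxra +81.9 kb: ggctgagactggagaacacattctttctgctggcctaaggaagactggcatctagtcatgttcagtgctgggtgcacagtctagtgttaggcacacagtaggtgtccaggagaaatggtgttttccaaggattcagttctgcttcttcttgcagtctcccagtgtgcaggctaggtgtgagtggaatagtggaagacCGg
Ppara +11.7 kb: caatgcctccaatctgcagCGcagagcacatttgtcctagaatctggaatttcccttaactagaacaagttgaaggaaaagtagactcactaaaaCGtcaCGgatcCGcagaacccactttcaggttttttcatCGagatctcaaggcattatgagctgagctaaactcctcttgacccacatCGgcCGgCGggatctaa
Ppara +11.9 kb: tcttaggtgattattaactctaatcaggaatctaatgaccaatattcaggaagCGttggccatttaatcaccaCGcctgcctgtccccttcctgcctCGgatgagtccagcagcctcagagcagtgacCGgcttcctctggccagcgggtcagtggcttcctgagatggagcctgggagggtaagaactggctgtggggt
Ppara +14.1 kb: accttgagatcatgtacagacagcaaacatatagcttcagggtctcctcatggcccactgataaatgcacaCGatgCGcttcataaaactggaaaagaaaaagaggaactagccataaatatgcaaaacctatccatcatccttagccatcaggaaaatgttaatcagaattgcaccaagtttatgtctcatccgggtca
Ppard +65.6 kb: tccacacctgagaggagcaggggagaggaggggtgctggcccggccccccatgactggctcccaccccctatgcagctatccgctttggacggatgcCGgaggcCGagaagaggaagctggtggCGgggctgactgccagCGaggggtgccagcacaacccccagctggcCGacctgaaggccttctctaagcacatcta
Rxrg +8.9 kb: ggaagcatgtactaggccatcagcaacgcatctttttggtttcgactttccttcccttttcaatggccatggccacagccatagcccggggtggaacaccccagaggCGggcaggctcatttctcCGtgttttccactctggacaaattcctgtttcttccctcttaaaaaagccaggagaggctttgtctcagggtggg

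The MspI motif CCGG stood in each of these sequences and in 98.5% of all bins. The hexamer AGGTCA on either strand, the element that PPAR, RXR and many other nuclear receptors recognise, was in 18 of the 135 bins of these genes, 13.3%, against 10.5% of all bins of the same length. The element of 2 such hexamers in the same direction with 1 base between them, on either strand, was in 0 of the 135 bins and in 0.0336% of all bins. None of the sequences shown holds either motif.

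The first question was how methylation at these genes changed between birth and weaning. In Con, 28 of the 135 bins rose and 24 fell, and in AME 35 rose and 21 fell. Falls were a larger share here than in the genome, where 26.7% of bins rose and 2.98% fell in Con, and 32.1% rose and 2.56% fell in AME. Among bins outside islands and shores, 27 of 89 rose (30.3%, against 33.7% of all such bins) and 22 fell (24.7%, against 3.45%) in Con. In AME the counts outside islands and shores were 33 rises (37.1%, against 40.5%) and 18 falls (20.2%, against 2.99%). Of the 41 bins in islands, 0 rose in either group, against 3.39% of all island bins in Con and 4.21% in AME, and 2 fell in each, against 0.576 and 0.482%. The median difference between d21 and d0 over the 135 bins was 0.046 percentage points in Con and 0.0057 in AME, whereas over all bins it was 6.4 and 7.79. Outside islands and shores the median was 6.22 points in Con and 7.09 in AME, against 8.72 and 10.4 over all such bins. The d0 and d21 libraries were fully apart in 37 bins of these genes in Con (27.4%, against 25.3% of all bins) and in 49 in AME (36.3%, against 27.5%). At the other extreme, 39 bins had a mean level under 10% in all 4 groups, among them all 6 bins of Pparg, 9 of Ppargc1b and 7 each of Ppara and Rxrb. The bins of one gene share its cells and neighbouring CpGs, so these counts are descriptions and not independent replicates.

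The falls lay in 4 of the genes. Rxra, which encodes the main RXR of hepatocytes, had 12 of its 31 bins fall in Con and 11 in AME. Ppard had 7 of 35 bins fall in Con and 5 in AME, Ppara 3 of 15 in each, and Ppargc1b 2 of 25 in each. Pparg, Ppargc1a, Rxrb and Rxrg had 0 bins fall in either group, but all 6 bins of Pparg and 7 of the 12 of Rxrb were under 10% in every group and could not fall by 10 points, and Ppargc1a had 4 bins in all. Rises were found in 7 bins of Ppard, 5 each of Rxra, Rxrg and Ppargc1b, 3 of Ppara, 2 of Ppargc1a and 1 of Rxrb in Con.

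**Figure D1:**
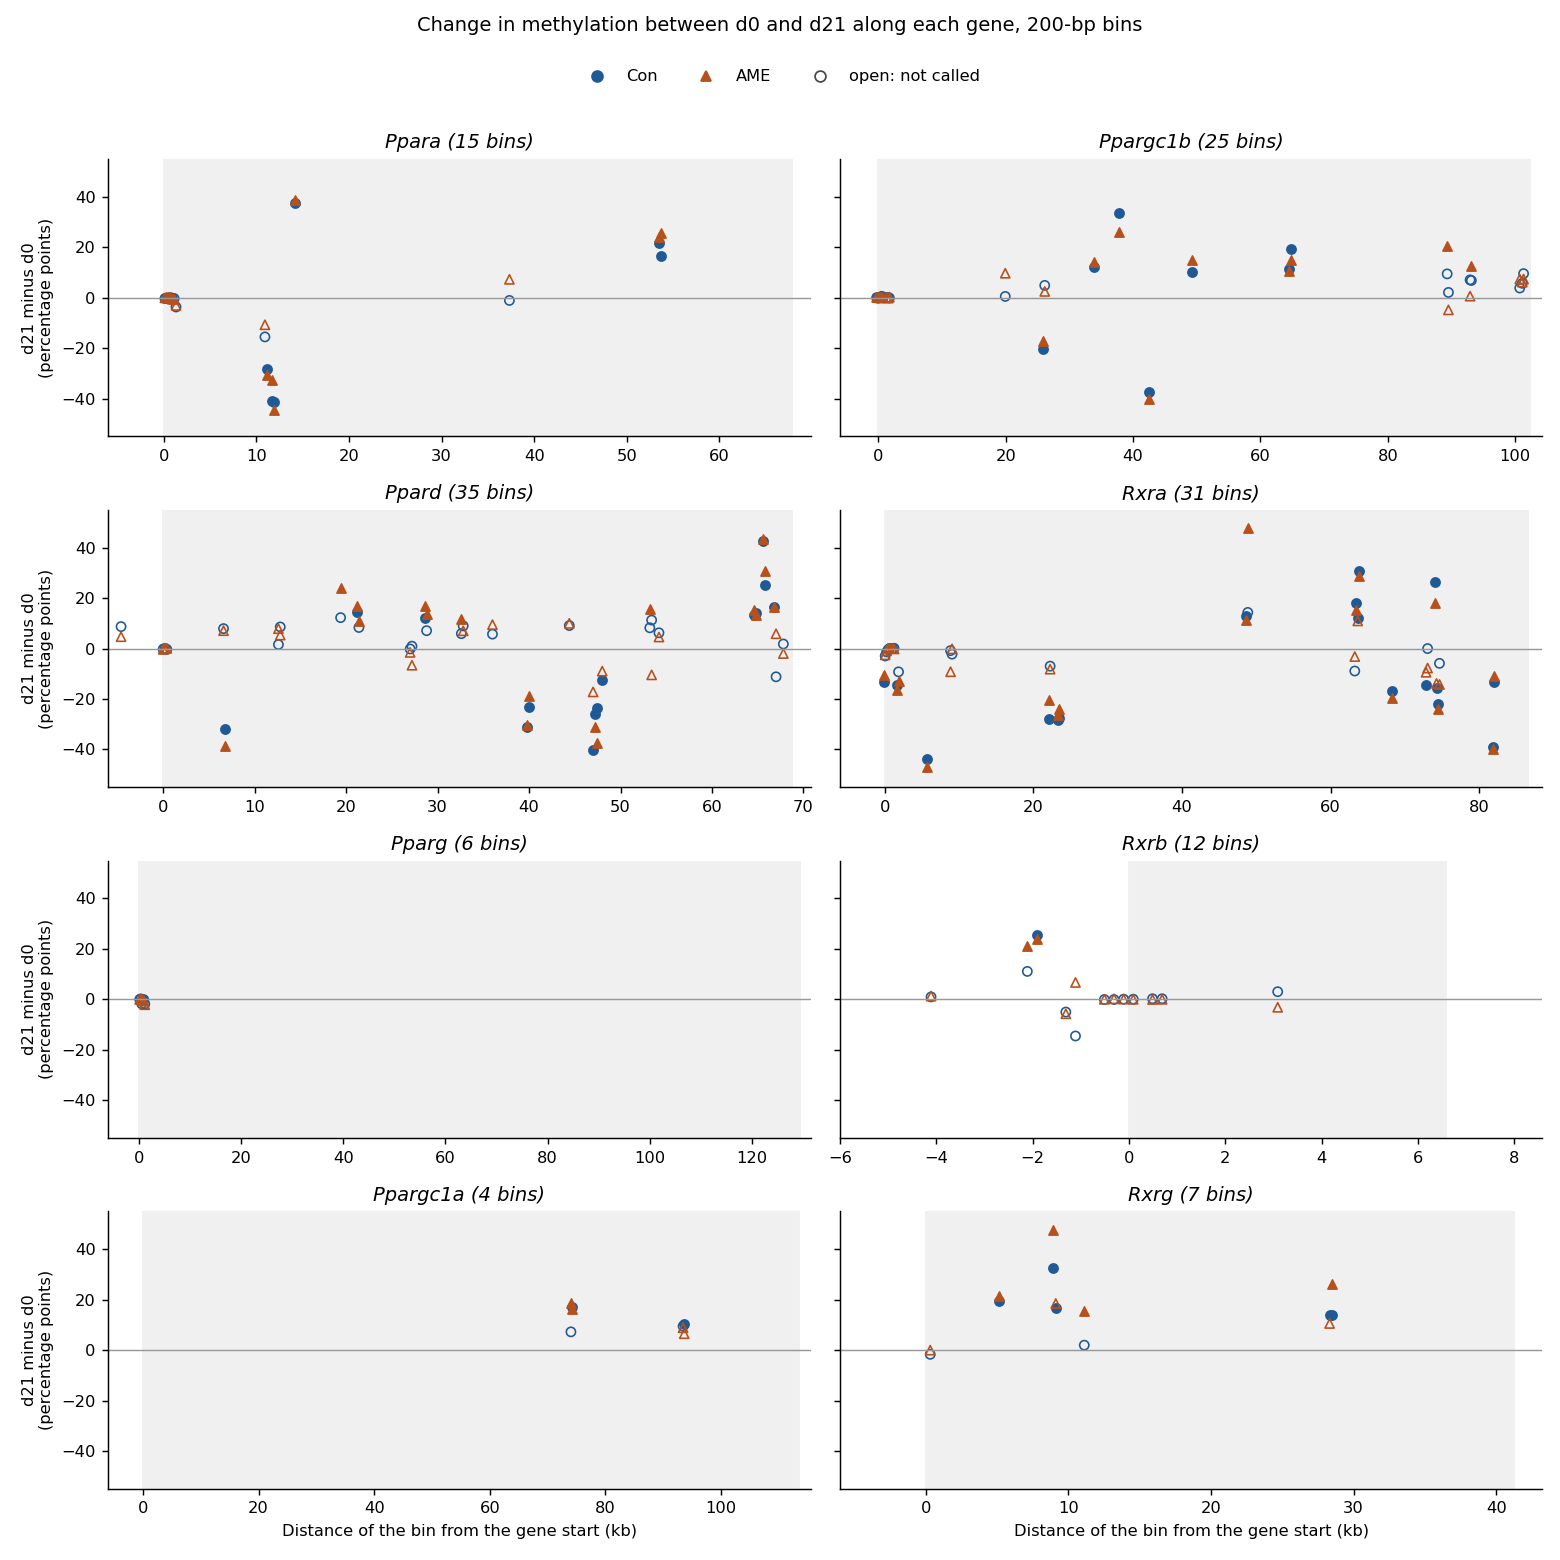
Difference in methylation between d21 and d0 (percentage points) of each 200-bp bin against its distance from the gene start (kb), 1 panel per gene, for Con (circles) and AME (triangles), filled where the bin rose or fell by the stated test. The shaded span is the gene. Falls of over 20 points lie inside Rxra, Ppara, Ppard and Ppargc1b, and bins at the gene starts lie near 0 other than at Rxra, where Rxra -0.1 kb fell.

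Rxra carried falls and several rises along its first introns and its 3′ portion, among them the deepest single fall of the 135 bins in Con and in AME. At Rxra +5.7 kb (intron, 5 CpGs, 37 to 154 reads per library), Con-d0 libraries had 73, 69, 61.1, 62.6 and 67.2% and Con-d21 libraries 23.3, 15, 32.4, 16.1 and 26.7%. The AME-d0 libraries had 64, 68.5, 55, 71.6 and 72.9% and the AME-d21 libraries 19.2, 10.6, 14.3, 26.6 and 26.8%. Every d21 library was below every d0 library in both groups. The fall was 43.9 percentage points in Con (adjusted p = 4.7e-05) and 46.9 points in AME (adjusted p = 4.5e-05).

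Rxra +81.9 kb (intron, 1 CpG, 20 to 44 reads) lost nearly all of its methylation. Con-d0 libraries had 36.4, 44.1, 54.8, 30.3 and 42.1% and Con-d21 libraries 3.33, 2.7, 5.41, 0 and 0%. AME-d0 libraries had 52.6, 21.9, 39.4, 48.4 and 46.2% and AME-d21 libraries 0, 0, 2.27, 4.76 and 2.44%. The groups did not overlap between ages, and the fall was 39.3 points in Con (adjusted p = 1.1e-05) and 39.8 points in AME (adjusted p = 1.3e-05). The neighbouring bin Rxra +82.1 kb went from 14.8 to 1.4% in Con and from 11.6 to 0.583% in AME.

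The adjacent bins Rxra +23.3 kb and Rxra +23.5 kb moved alike, from 31.1 and 30.6% in Con-d0 to 2.75 and 2.98% in Con-d21. In AME they went from 26.2 and 29.8% to 0 and 6%. The opposite direction was seen at Rxra +63.9 kb, an exon of a non-coding transcript with 3 CpGs and 12 to 63 reads. It was at 4.89 ± 2.85% in Con-d0 and 35.6 ± 13% in Con-d21 (adjusted p = 0.00017), and at 4.12 ± 2.6% in AME-d0 and 33 ± 11% in AME-d21 (adjusted p = 9e-05). Within 1 kb, Rxra +63.5 kb also rose in both groups, from 30.7 to 48.7% in Con and from 32.2 to 47.3% in AME.

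Among the gene starts, only that of Rxra passed the limma test. Promoter levels were pooled over 1 kb on either side of the gene start and could be tested in 6 of the 8 genes. A promoter is said to have risen or fallen at an adjusted p under 0.05 over all promoters, with no minimum difference. Rxra (34 CpGs, 316 to 789 reads) was at 1.76, 2.22, 4.31, 4.06 and 7.92% in Con-d0 and at 0.287, 0.158, 0.986, 2.44 and 1.24% in Con-d21. It was at 1.64, 2.75, 4.18, 5.16 and 5.32% in AME-d0 and at 0.250, 0.556, 0.424, 1.43 and 0.998% in AME-d21. All AME-d0 libraries were above all AME-d21 libraries, whereas 1 Con-d21 library was above the lowest Con-d0 libraries. The promoter fell in Con from 4.05 ± 2.43 to 1.02 ± 0.916% (log2 ratio of methylated to unmethylated counts lower by 2.14 with an SE of 0.56, adjusted p = 0.014) and in AME from 3.81 ± 1.58 to 0.731 ± 0.477% (adjusted p = 0.0017). On the percent scale the Con difference had an adjusted p of 0.0903. The background was 19.8% of 18359 promoters risen and 3.88% fallen in Con, and 20.8 and 3.13% in AME.

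Within this promoter the methylated reads lay at the edge of the island. The bin Rxra -0.1 kb, shown above, held 9 CpGs and went from 17.3 to 3.92% in Con and from 13.2 to 2.59% in AME, a fall in both. On the other side Rxra +1.7 kb, with 1 CpG, lay outside the promoter window and did not enter its level. It went from 15.7 to 1.29% in Con and from 16.5 to 0% in AME. The promoters closest to that of Rxra in their levels over the 20 libraries were those of Arg1, an arginase of the urea cycle (Pearson r = 0.894), Tdrd7, a tudor domain protein (r = 0.871), and 2410080I02Rik (r = 0.851). The points of these correlations share the libraries and fall in 2 age clusters, so they describe the same step between ages.

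The other promoters were nearly free of methylation in all 20 libraries. Ppara was at 0.344 ± 0.113% in Con-d0 and 0.170 ± 0.119% in Con-d21 (adjusted p = 0.13), and at 0.438 ± 0.152% in AME-d0 and 0.223 ± 0.0579% in AME-d21 (adjusted p = 0.084). Pparg at its first start was at 0.424 ± 0.145% in Con-d0 and 0.426 ± 0.241% in AME-d0, and its lowest group mean was 0.157 ± 0.146% in AME-d21. Ppard was at 0.111 ± 0.106% in Con-d0 and 0.0232 ± 0.0519% in Con-d21, and Ppargc1b stayed between 0.0539 and 0.0851% over the group means. Rxrb ranged from 0.0361 to 0.0801% over the group means. With 530 to 3918 reads behind these promoters, differences of such size rest on few methylated reads.

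**Figure D2:**
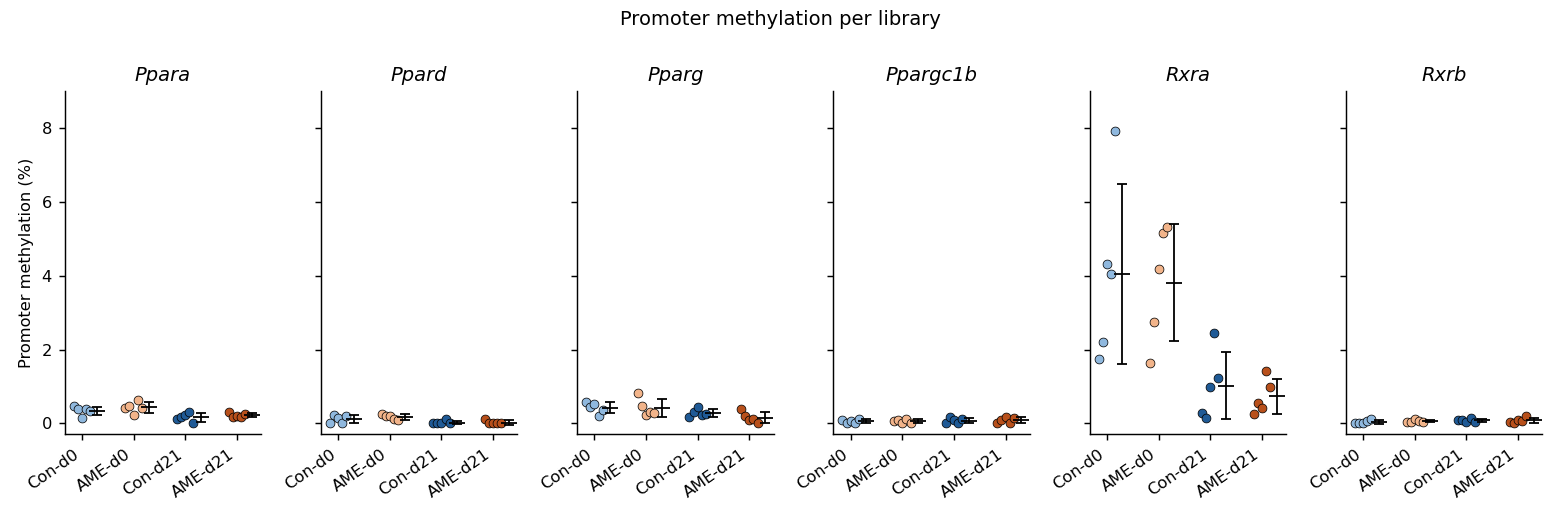
Promoter methylation (%) per library for the 6 genes whose promoter was measured, by group; points are libraries, and bars are the mean and SD of 5 libraries. The Rxra libraries lie between 1.64 and 7.92% at d0 and between 0.158 and 2.44% at d21, and no library of another gene is above 0.824%.

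Ppara, the receptor that governs hepatic fatty acid oxidation, changed inside its first introns and not at its start. Ppara +11.7 kb (8 CpGs, 98 to 266 reads) had 78.6, 75.8, 69.6, 76.1 and 74.4% in Con-d0 and 29.3, 35.2, 31.1, 32.6 and 40.6% in Con-d21. It had 68.1, 64.3, 75.5, 67.5 and 72.8% in AME-d0 and 35.7, 38.6, 33.6, 47 and 30% in AME-d21. No d21 library reached the lowest d0 library, and the fall was 41.1 points in Con (adjusted p = 2.2e-05) and 32.7 points in AME (adjusted p = 0.00026).

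The next bin, Ppara +11.9 kb (4 CpGs, 55 to 156 reads), fell further. It had 47.2, 40.8, 64.6, 57.7 and 46.4% in Con-d0 and 11.6, 18.8, 5.17, 5.5 and 9.38% in Con-d21. It had 45.6, 41.2, 57.4, 40 and 57.8% in AME-d0 and 4.63, 5, 4.35, 3.09 and 1.57% in AME-d21. The fall was 41.3 points in Con (adjusted p = 6e-05) and 44.7 points in AME (adjusted p = 2.5e-06). Single CpGs in these bins moved more than the bins did. The CpG at position 85746784 went from 84.2 to 11.6% in Con and from 77.6 to 10.7% in AME, and its neighbours at 85746788 and 85746791 went from 68 and 69.2% to 11.9 and 15.4% in Con. The upstream bin Ppara +11.1 kb fell as well, from 78.4 to 50.3% in Con and from 82.3 to 51.6% in AME.

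About 2 kb downstream the direction turned. Ppara +14.1 kb (intron, 2 CpGs, 12 to 44 reads) had 35.7, 50, 37.5, 60 and 56.2% in Con-d0 and 87.5, 85, 82.1, 77.3 and 95% in Con-d21, a rise of 37.5 points (adjusted p = 0.00032). In AME it went from 49 ± 13.8 to 87.6 ± 2.96%, a rise of 38.6 points (adjusted p = 0.00022). Ppara +53.5 kb rose from 67 to 88.7% in Con and from 67.2 to 91.1% in AME.

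Ppard, the broadly expressed family member, held the largest rise of all 135 bins in Con. Ppard +65.6 kb lies over a coding exon (5 CpGs, 106 to 238 reads) and had 42.1, 38.4, 53.2, 38.2 and 56% in Con-d0 and 95.3, 92.1, 90.4, 81.6 and 82.3% in Con-d21. It had 41, 51.6, 43.6, 39.9 and 49.5% in AME-d0 and 83.7, 88.2, 86.7, 89.6 and 93.6% in AME-d21. Every d21 library was above every d0 library, by 42.8 points of group mean in Con (adjusted p = 6.2e-05) and 43.2 points in AME (adjusted p = 1.3e-05). The next bin, Ppard +65.8 kb, rose from 63 to 88.2% in Con and from 62.3 to 93% in AME.

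Falls in Ppard lay in 3 other stretches of its introns. Ppard +6.8 kb (1 CpG, 10 to 38 reads) went from 92 ± 3.95 to 60.1 ± 8.45% in Con (adjusted p = 0.00011) and from 88.7 ± 6.75 to 49.8 ± 6.16% in AME (adjusted p = 0.0002). Ppard +39.8 kb went from 81.8 to 50.9% in Con and from 81.1 to 50.9% in AME. Near +47 kb, Ppard +47.2 kb went from 64.8 to 38.7% in Con and from 63.9 to 32.8% in AME, and Ppard +47.4 kb from 43.8 to 20.2% and from 50.9 to 13.3%. Ppard +47.0 kb had 1 CpG and 6 to 28 reads, and libraries under 10 reads were dropped from the fit. It was at 75.7 ± 10.1% (n = 3) in Con-d0 and 35.3 ± 14.9% in Con-d21 (adjusted p = 0.0034), and at 63.2 ± 11.9% (n = 4) in AME-d0 and 46.0 ± 20.2% (n = 3) in AME-d21 (adjusted p = 0.17).

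The coactivator genes differed from each other in what could be seen. Ppargc1b +42.5 kb (intron, 5 CpGs, 85 to 321 reads) had 80, 67, 68.3, 71.8 and 77.9% in Con-d0 and 24.2, 40, 38.1, 43.1 and 32.1% in Con-d21, a fall of 37.5 points (adjusted p = 0.00015). In AME it went from 73.9 ± 6.16 to 33.6 ± 6.25% (adjusted p = 9.2e-05). Ppargc1b +25.9 kb fell less, from 74.2 ± 4.32 to 53.9 ± 10% in Con (adjusted p = 0.0069) and from 71.6 ± 3.72 to 54.4 ± 5.46% in AME (adjusted p = 0.0096). Ppargc1b +37.7 kb, between them, rose from 37.6 ± 13.9 to 71.4 ± 12.1% in Con (adjusted p = 0.0034) and from 28.9 ± 7.18 to 55.2 ± 0.733% (n = 4, 1 library dropped at under 10 reads) in AME (adjusted p = 0.0032).

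Ppargc1a, whose transcription rises in liver with fasting, was measured only in 4 bins deep in the gene. Ppargc1a +74.2 kb (intron, 2 CpGs) rose from 76.9 ± 6.61 to 94.1 ± 1.24% in Con (adjusted p = 0.00029) and from 75.1 ± 9.33 to 91.2 ± 3.63% in AME (adjusted p = 0.0037). Ppargc1a +93.6 kb, over a coding exon, rose from 82.4 ± 8.37 to 92.9 ± 4.77% in Con (adjusted p = 0.023). This call was lost on the percent scale, with an adjusted p of 0.0773. In AME the same bin went from 88.1 ± 3.93 to 94.6 ± 3.29%, a difference of 6.51 points that is under the minimum of 10. Ppargc1a +74.0 kb passed in AME, from 64.5 ± 14.7 to 83.2 ± 1.72% (adjusted p = 0.015), against 71.5 ± 9.31 to 78.8 ± 6.77% in Con (adjusted p = 0.3). The difference between these changes had an adjusted p of 0.97, and the AME call was lost without AME-d0 replicates 1 and 3, at 13.7 points (adjusted p = 0.0656).

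Rxrg, an RXR best known from muscle and brain, rose in 5 of its 6 bins outside its island in Con and in 4 in AME. Rxrg +8.9 kb (intron, 2 CpGs, 22 to 96 reads) had 44.2, 50, 32.9, 42.9 and 39.6% in Con-d0 and 70, 64.3, 72.5, 76.1 and 90% in Con-d21. It had 23.3, 31, 18.2, 37 and 35.7% in AME-d0 and 85.3, 81.1, 70.6, 67.3 and 79.5% in AME-d21. The rise was 32.7 points in Con (adjusted p = 0.001) and 47.7 points in AME (adjusted p = 5e-05). Rxrg +5.1 kb rose from 35.6 ± 5.33 to 55 ± 10.8% in Con (adjusted p = 0.016) and from 33 ± 5.94 to 54.7 ± 11.9% in AME (adjusted p = 0.013), the latter at 18.7 points and an adjusted p of 0.0789 without AME-d0 replicates 1 and 3. Rxrg +9.1 kb rose from 61.3 ± 10.8 to 78 ± 4.79% in Con (adjusted p = 0.032), a call that was lost in 6 of the 10 fits that left out 1 library. In Rxrb, Rxrb -1.9 kb, a shore bin that lies in Slc39a7 and Gm20427, rose from 54.7 ± 1.68 to 80.3 ± 4.63% in Con (adjusted p = 0.00043) and from 55.1 ± 8.46 to 78.9 ± 8.42% in AME (adjusted p = 0.0043).

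**Figure D3:**
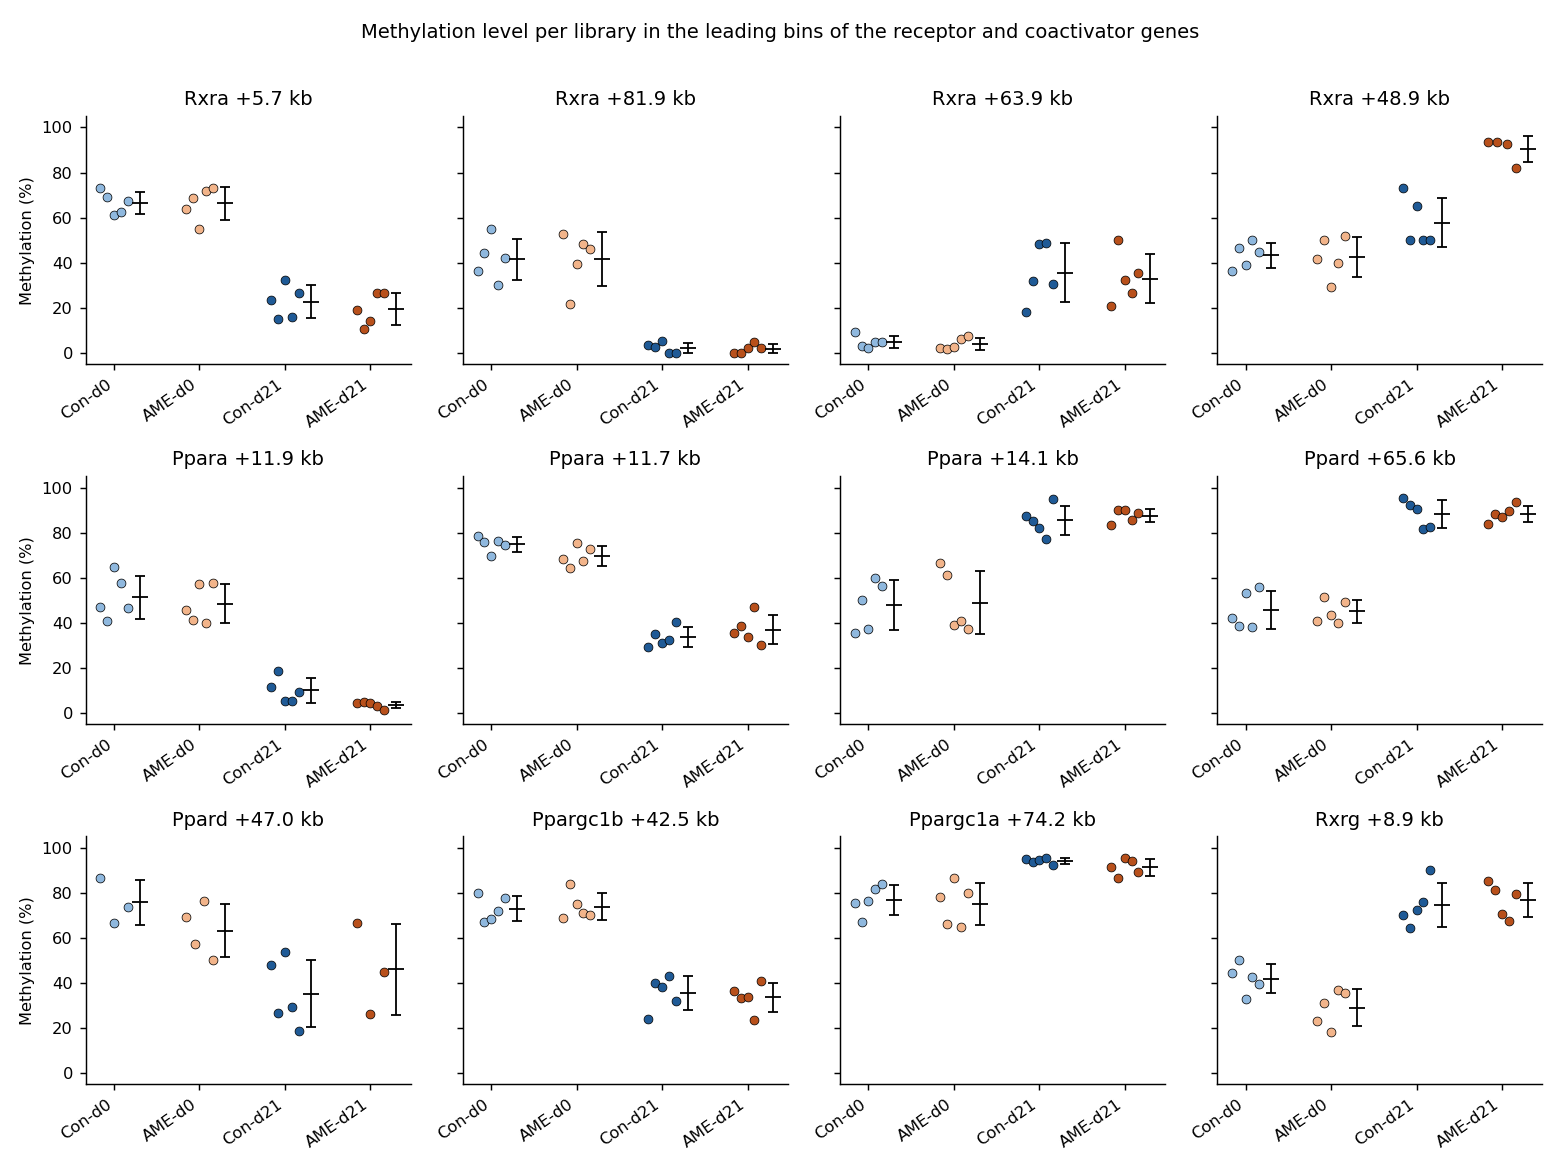
Methylation level (%) per library in 12 of the named bins, by group; points are libraries, and bars are the mean and SD of the libraries with at least 10 reads. In 9 of the panels the d0 and d21 libraries are fully apart in both Con and AME, and the exceptions are Rxra +48.9 kb, where Con-d0 and Con-d21 touch at 50%, and Ppard +47.0 kb and Ppargc1a +74.2 kb, where AME-d0 and AME-d21 overlap.

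At single CpGs, a quasi-binomial test was used with p under 0.001 and a difference of at least 10 points. By this rule 12 of the 647 CpGs rose and 30 fell in Con, 1.85 and 4.64% against 2.48 and 0.73% of all CpGs. In AME 9 rose and 28 fell, 1.39 and 4.33% against 2.56 and 0.553%. The falls in Con were 11 in Rxra, 8 in Ppara, 7 in Ppard and 4 in Ppargc1b, and 21 CpGs fell in both groups. The CpG of Ppargc1b at 61357889 went from 86.3 to 31.1% in Con and from 81.7 to 30.7% in AME. A limma test of the same CpGs called 68 in each group, 10.5% of the 647 against 8.69% of all CpGs in Con and 9.07% in AME. By that test 24 rose and 44 fell in Con, where 7.42% of all CpGs rose and 1.27% fell, and 28 rose and 40 fell in AME, where 8.05% rose and 1.02% fell.

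Of the 52 bins that rose or fell in Con and the 56 in AME, 44 did so in both and in the same direction, 84.6% of the Con list and 78.6% of the AME list. These were 24 rises and 20 falls, against 19.2% of all bins that rose in both and 2.17% that fell in both. No bin of these genes rose in one group and fell in the other. Across the 135 bins the age differences in Con and AME had a Pearson r of 0.927 and a Spearman rho of 0.897, with bins of a gene sharing libraries and neighbouring CpGs.

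**Figure D4:**
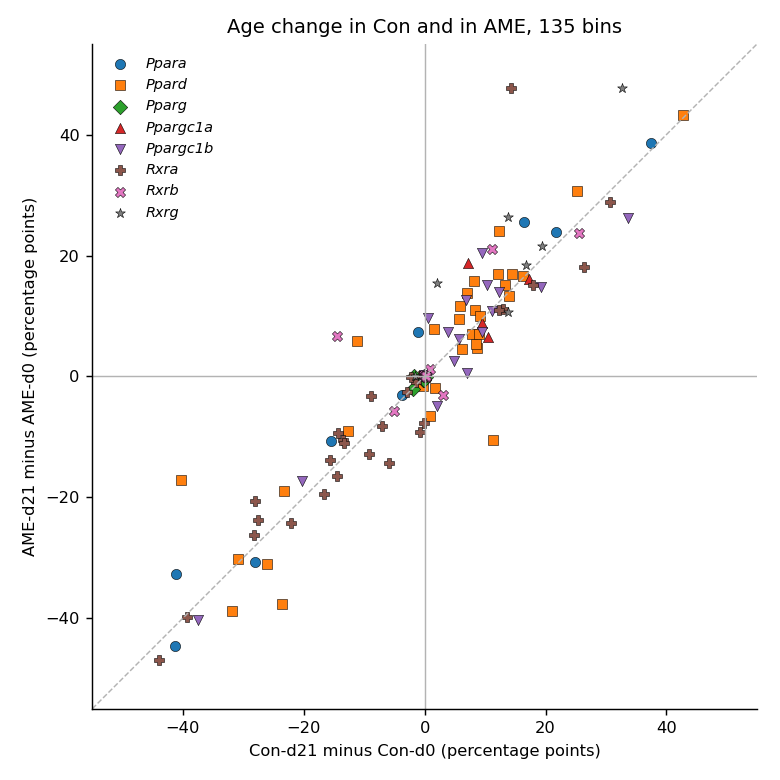
Difference between d21 and d0 in AME (vertical, percentage points) against that in Con (horizontal), 1 point per bin, for the 135 bins, with symbols by gene and the line of equality dashed. Most points lie close to the line, with r = 0.927, and the Rxra point highest above it is Rxra +48.9 kb, at 14.3 points in Con and 47.7 points in AME.

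Markers of cell types moved with these age changes. In bulk liver, a change in the share of a cell type and a change in methylation per cell cannot be told apart. Of the 13 hepatocyte markers, 4 had a measured promoter (F2, Fgb, Hnf4a and Pck1) and all 4 fell in both groups. Their mean level was 50.3 to 60.2% over the Con-d0 libraries and 19.9 to 27.2% over those of Con-d21, and in AME it was 51.9 to 60.3% at d0 and 19.5 to 26.7% at d21. Of the 14 markers of blood progenitors and myeloid cells, 6 were measured and 5 rose in each group, with a list mean of 12.1 to 15.6% over the Con-d0 libraries and 33.4 to 39.8% over those of Con-d21, and in AME of 9.37 to 13.7% at d0 and 33.3 to 37.4% at d21. Rises in Con were also found in 2 of 4 erythroid, 2 of 3 endothelial, 1 of 1 Kupffer cell and 2 of 5 stellate cell markers, with 1 stellate cell marker fallen, and in 0 of 3 cholangiocyte markers. In AME the rises in these lists were 3, 2, 1, 3 and 0, with 0 fallen. Over all promoters 19.8% rose and 3.88% fell in Con, and 20.8 and 3.13% in AME. The part of cell makeup in the changes at the receptor and coactivator genes was not tested.

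The wider pathway was followed in 6 lists of 113 genes, of which 83 had a measured promoter. With no minimum difference, 9 of these rose and 9 fell in Con, and 10 rose and 12 fell in AME. Over all promoters the shares were 19.8% risen and 3.88% fallen in Con, and 20.8 and 3.13% in AME. Among 15 measured PPAR targets of fatty acid oxidation, 0 rose and 4 fell in Con, and 0 rose and 3 fell in AME. All 15 were under 10% in every group. Slc25a20, the carnitine-acylcarnitine carrier of mitochondria, fell from 5 ± 1.53 to 2.81 ± 0.769% in Con (adjusted p = 0.049) and from 5.06 ± 0.245 to 2.82 ± 0.841% in AME (adjusted p = 0.031). Decr1 fell from 1.66 ± 1.23 to 0.218 ± 0.313% in Con (adjusted p = 0.043) and Ehhadh from 1.3 ± 0.695 to 0.267 ± 0.271% (adjusted p = 0.02). Neither passed in AME (adjusted p = 0.1 and 0.2). Acadm, the medium-chain acyl-CoA dehydrogenase, fell less, from 0.649 ± 0.262 to 0.246 ± 0.116% in Con (adjusted p = 0.035). In AME it fell from 0.56 ± 0.175 to 0.0639 ± 0.0885% (adjusted p = 0.0014). With 495 to 1424 reads per library at Acadm and fewer at Decr1 and Ehhadh, these levels rest on few methylated reads.

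Among 16 measured PPAR targets of lipid transport and storage, 3 rose and 1 fell in Con and 4 rose and 2 fell in AME. Creb3l3, a hepatic transcription factor of lipid metabolism, had the largest change, from 41 ± 3.81 to 68.7 ± 1.91% in Con (adjusted p = 0.0002) and from 34.9 ± 6.02 to 60.2 ± 10.2% in AME (adjusted p = 0.0053). Fgf21, a hormone induced by PPARα, fell from 83.3 ± 7.09 to 71.3 ± 5.18% in AME (adjusted p = 0.047) and was at 79.9 ± 5.28 and 68.5 ± 10.7% in Con (adjusted p = 0.16). Among 10 genes of retinoid metabolism and binding, 2 rose and 1 fell in Con and 1 fell in AME. The fall was Bco1, which cleaves beta-carotene to retinal, from 46.6 ± 8.67 to 11 ± 5.06% in Con (adjusted p = 0.00019) and from 55 ± 5.06 to 9.17 ± 1.45% in AME (adjusted p = 2.6e-06).

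Of 17 measured partners and targets of PGC1, 0 rose and 2 fell in Con, and 1 rose and 4 fell in AME. The 2 that fell in Con were Hnf4a and Pck1, which the hepatocyte list also holds. Pck1, a gluconeogenic enzyme, went from 57.6 ± 4.45 to 25.2 ± 4.21% in Con (adjusted p = 0.0001) and from 50.6 ± 5.28 to 27.3 ± 8.22% in AME (adjusted p = 0.0044). Of 9 RXR partner receptors, Rara and Nr4a1 rose in both groups and none fell. Rara, a retinoic acid receptor, went from 3.79 ± 3.17 to 26.1 ± 3.69% in Con (adjusted p = 0.00015) and from 2.89 ± 1.04 to 28.2 ± 3.54% in AME (adjusted p = 4.2e-06). Of 16 coactivators and corepressors, 2 rose and 1 fell in Con and 3 rose and 2 fell in AME. The largest rise was that of Sirt1, a deacetylase that acts on PGC1α, from 2.54 ± 2.52 to 15.1 ± 2.41% in Con (adjusted p = 0.00084) and from 2.11 ± 0.412 to 13.3 ± 5.25% in AME (adjusted p = 0.00012).

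The second question was whether AME changed methylation at these genes at birth. No bin, promoter or CpG passed the test at d0 by limma or the quasi-binomial model. The same holds for all 234985 bins of the genome, 0% called, and the quasi-binomial model called 0.000542% of all CpGs lower in AME. A limma test per CpG called 0 of the 647 CpGs and 0.0833% of all CpGs, 124 of them higher and 645 lower in AME. At an unadjusted p under 0.05, 3 of the 135 bins differed, 2.22% against 5.7% of all bins, and 2 of the 647 CpGs, against 1.68% of all CpGs. The count of bins was 2 without AME-d0 replicates 1 and 3, 1 when Con-d0 replicate 2 was left out, 7 when Con-d0 replicate 5 was, and 5 when Con-d0 replicate 4 or AME-d0 replicate 5 was. The 4 bins with a difference of at least 10 points ran to -13.8 points at Rxra +22.3 kb, and the median difference was -0.165 points. No bin had AME-d0 and Con-d0 libraries fully apart, against 1.05% of all bins.

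The bins with the smallest p per gene at d0 were these. Ppard +27.2 kb (5 CpGs) was at 84.7 ± 2.45% in Con-d0 and 91 ± 2.97% in AME-d0 (adjusted p = 0.87). Rxrg +8.9 kb was at 41.9 ± 6.29 and 29 ± 8.08% (adjusted p = 0.87), with the 2 lowest AME-d0 libraries being replicates 1 and 3. Rxra +22.3 kb (1 CpG) was at 85.9 ± 5.54% in Con-d0 and 72.1 ± 14.9% (n = 4, 1 library dropped at under 10 reads) in AME-d0 (adjusted p = 0.88), and at d21 it was again lower in AME, at 63.9 ± 13.1% against 78.9 ± 12.2% in Con-d21 (adjusted p = 0.97). Ppargc1b +49.3 kb was at 78.6 ± 6.61 and 70.5 ± 2.08%, Ppargc1a +93.6 kb at 82.4 ± 8.37 and 88.1 ± 3.93%, and the leading bins of Ppara, Pparg and Rxrb were under 2% in both groups. Without AME-d0 replicates 1 and 3, 0 bins passed as well.

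The third question was whether AME changed methylation at weaning. No bin, promoter or CpG of these genes passed at d21, nor did any bin of the genome (0% called), and 0.000217% of all CpGs were called. At an unadjusted p under 0.05, 12 of the 135 bins differed, 8.89% against 5.07% of all bins, and 12 of the 647 CpGs, 1.85% against 1.61% of all CpGs. The count of bins was 6 without AME-d21 replicate 3 and 8 without AME-d21 replicate 4, and ran to 15 without Con-d21 replicate 3. A limma test per CpG called 1 of the 647 CpGs, higher in AME, where it called 0.0277% of all CpGs higher and 0.0336% lower. Con-d21 and AME-d21 libraries were fully apart in 5 bins, 3.70% against 0.892% of all bins.

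The bin with the smallest p was Rxra +48.9 kb (chromosome 2, 27725201 to 27725400, intron, 1 CpG, 4 to 36 reads). It had 73.3, 50, 65.2, 50 and 50% in Con-d21 and 93.3, 93.3, 92.9 and 81.8% in the 4 AME-d21 libraries with at least 10 reads. AME-d21 replicate 4 had too few reads to enter. The levels at d0 were 43.4 ± 5.57% in Con and 42.6 ± 9.01% in AME, so the libraries of AME-d21 stood above all others. The difference at d21 was 32.6 points, with an unadjusted limma p of 4.7e-05 and an adjusted p of 0.97 over all bins, so it did not pass. The age change of this bin was 47.7 points in AME (adjusted p = 5.7e-05) and 14.3 points in Con (adjusted p = 0.075), and the test of the difference between those changes gave an adjusted p of 0.91. The neighbouring bin Rxra +48.7 kb, with 4 CpGs, was at 74.1% in Con-d21 and 79.8% in AME-d21.

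The other bins whose d21 groups were apart differed less. Ppara +11.9 kb was at 10.1 ± 5.57% in Con-d21 and 3.73 ± 1.4% in AME-d21, and Ppargc1b +37.7 kb at 71.4 ± 12.1 and 55.2 ± 0.733% (n = 4). Pparg +1.1 kb was at 1.53 ± 0.477 and 0.397 ± 0.389%, and Rxra +1.3 kb at 0.155 ± 0.0551 and 0%. All 4 had an adjusted p of 0.97. Of the other bins with the smallest p in their gene, Ppard +19.4 kb was at 81 ± 8.27 and 91.5 ± 6.48% and Rxrg +11.1 kb at 74.8 ± 7.89 and 81.9 ± 8.28%. Ppargc1b +89.5 kb was at 94.2 ± 6.01 and 78.8 ± 14% (n = 3), and Ppargc1a +74.2 kb at 94.1 ± 1.24 and 91.2 ± 3.63%. Rxrb -0.5 kb was at 0.037 ± 0.0827 and 0.115 ± 0.157%. The adjusted p was 0.97 in each. AME-d21 replicate 4 was the lowest AME-d21 library at Ppargc1b +89.5 kb, at 63.2% against 83.3 and 90%. It was the highest at Ppard +19.4 kb, at 100%.

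**Figure D5:**
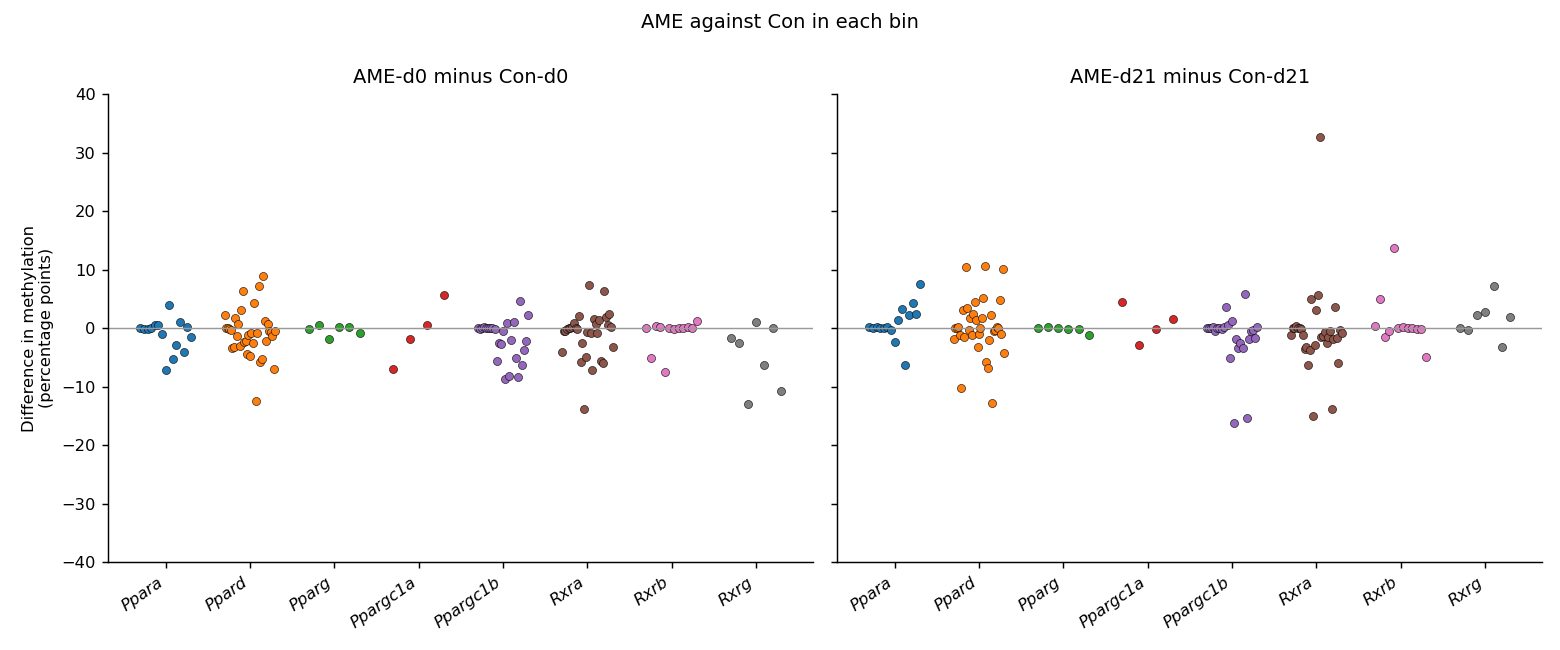
Difference in methylation between AME and Con (percentage points) of each bin at d0 (left) and at d21 (right), 1 point per bin, by gene, with the bins of a gene in the order of their distance from its start. The points lie between -13.8 and 8.86 at d0 and between -16.2 and 32.6 at d21, where the highest is Rxra +48.9 kb.

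The last comparison was whether the age change itself differed between AME and Con. No bin passed the interaction test over all 20 libraries, in these genes or among all bins of the genome. At an unadjusted p under 0.05 there were 6 of 135 bins, against 5.17% of all bins. This count was 3 without AME-d21 replicate 5 and 11 without AME-d21 replicate 2, 4 without AME-d21 replicate 4 and 5 without AME-d0 replicates 1 and 3. The differences of change ran from -21.7 points at Ppard +53.4 kb to 33.4 points at Rxra +48.9 kb, and the smallest adjusted p was 0.91. Leaving out AME-d21 replicate 4 left 34 rises and 21 falls in the AME age comparison, and leaving out AME-d0 replicates 1 and 3 left 23 rises and 21 falls. Over all bins of the genome the share called was 34.7% with every library, 33% without AME-d21 replicate 4 and 23.3% without AME-d0 replicates 1 and 3. In these genes the same shares were 41.5, 40.7 and 32.6%. Without AME-d0 replicates 1 and 3, rises over all bins went from 75499 to 49295 and falls from 6022 to 5413. Neither exclusion gave a called bin between AME and Con.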

How the data were processed

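RRBS was performed on 20 livers. The authors trimmed and aligned the reads to mm10, with Bismark, BWA, Trim Galore and FastQC listed as tools in the submitters' notes, without versions or roles. The deposited files give, per CpG and library, counts of methylated, unmethylated and total reads, from 1 read up, and the deposited percent is 100 times methylated over total reads. The sources used here do not say how duplicate reads were treated.

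From these counts CpGs with at least 10 reads in at least 3 libraries of each group were kept, and genes were placed with GENCODE M21. Levels of fixed 200-bp bins and of promoters (1 kb on either side of the gene start, at least 3 CpGs) were tested as log2((methylated + 1)/(unmethylated + 1)) with limma 3.58.1 in R 4.3.3, with Benjamini-Hochberg adjustment over all bins or promoters. The 10 libraries of the 2 groups entered each fit, all 20 entered the difference of age changes, and libraries under 10 reads at a bin were dropped from it. CpGs were tested by a quasi-binomial model in Python 3.11.15 with scipy 1.17.1. Scripts were tested on simulated data. CpG islands were windows of at least 500 bp with at least 55% GC and an observed to expected CpG ratio of at least 0.65.

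The text names every testable promoter and up to 3 bins per gene with the largest called difference in Con. Any AME bin called with a larger one is named too. So are the bin of smallest p per gene in each AME comparison and some of the called list promoters. Neighbouring bins, single CpGs and extremes beyond these were named after their values were seen. The genes and lists were chosen with earlier results of these data known. The study gives 5 litters per group at d21, no label ties a library to a litter, and p-values measure the spread between these libraries. PCR copies of a molecule cannot be told from new molecules, so read numbers limit precision as counting error only, and at 10 reads 1 read is 10 percentage points.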

Additional observations from a re-analysis of the deposited data

Results flagged for a closer look

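The named bins and promoters held 148 groups of libraries, of which those with under 4 libraries or with no spread were not tested. In 5 groups 1 library was far from the others by Dixon's test at the 95% level, which chance gives in about 1 in 20 tested groups. At Rxra +48.9 kb, AME-d21 replicate 5 was at 81.82%, while the 3 others of its group with at least 10 reads were at 92.9 to 93.3%. At Ppard +19.4 kb, AME-d0 replicate 1 was at 78.38%, against 62.9 to 66.7% in the others. At Rxrb -0.5 kb, Con-d21 replicate 2 was at 0.1848% and the others at 0. At the Ppard promoter, Con-d21 replicate 4 was at 0.116% and AME-d21 replicate 1 at 0.125%, with the other libraries of each group at 0.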

How the results depend on the processing

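The count of called bins in each age comparison stayed within 1.5 times the 52 of Con and 56 of AME under every alternative run, and no called named bin or promoter changed direction. With 1 library left out the bins ranged from 44 to 51 in Con and from 50 to 57 in AME. The rises moved more than the falls. In those fits the 28 rises in Con became 20 to 27 and the 24 falls 23 to 25. In AME the 35 rises became 30 to 37 and the 21 falls 19 to 22. On the percent scale Con had 22 rises and 22 falls, and with a replicate block 20 and 23. Counts of single CpGs moved more. In Con the 42 called CpGs became 92 by a likelihood-ratio test without overdispersion, 68 by limma, 27 with a minimum of 20 reads, where fewer CpGs were tested, and 27 (without Con-d21 replicate 2) to 33 with 1 library left out. In AME the 37 became 95, 68 and 21 by the same alternatives, 23 without AME-d0 replicates 1 and 3, where fewer libraries were used, and 28 to 33 with 1 library left out. The test without overdispersion called 14.2 and 14.7% of these CpGs, against 12.7 and 13.8% of all CpGs. Between AME-d21 and Con-d21 the 0 called CpGs became 2 without overdispersion and 1 by limma, where these tests called 0.149 and 0.0613% of all CpGs. For promoters, the 1 called in Con, that of Rxra, became 0 on the percent scale and 1 to 2 with 1 library left out (2 without Con-d0 replicate 5). The 1 called in AME became 2 on the percent scale, 2 without AME-d0 replicates 1 and 3, and 1 to 3 with 1 library left out (3 without AME-d21 replicate 1). The added promoters were Rxrb in Con and Ppara, Ppard or Pparg in AME, each moving by under 0.5 percentage points. The cause of these moves, where not stated, was not tested. The replicate numbers gave no pairing, since deviations of same-numbered libraries correlated at -0.0204 to 0.0569. With a replicate block the bins were 43 in Con and 55 in AME, the promoters 1 in Con and 2 in AME, and the limma CpGs 65, 60 and, at d21, 1.

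Called bins that were lost elsewhere were Ppargc1a +93.6 kb in Con, in 5 of 10 fits without 1 library, Rxrg +9.1 kb in Con, in 6 of 10 and with all 20 libraries in 1 fit, and Ppargc1a +74.0 kb in AME at a minimum of 20 reads (adjusted p = 0.0524). Bins with 1 or 2 CpGs and few reads per library limit what can be seen at Ppargc1a, Rxrg and Rxra +48.9 kb.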
